A study of Mus musculus with 4 samples.

Results

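The genes described here encode proteins of the mitochondrial ribosome, in long-term hematopoietic stem cells (LT-HSC) set against short-term hematopoietic stem cells (ST-HSC) sorted from mouse bone marrow. Members were all gene rows whose symbol starts with Mrpl or Mrps followed by a digit, 73 of the 23450 genes listed. By symbol, 44 belonged to the large subunit (Mrpl) and 29 to the small subunit (Mrps), and 1 of the 29, Mrps36-ps1, is annotated as a pseudogene. The gate for LT-HSC took cells with CD150 and a high level of CD9, a tetraspanin, and without CD48 or CD34. The gate for ST-HSC took cells with CD150 and a low level of CD9, and without CD48, and no CD34 gate is given for them. Both groups had 2 libraries, each made from 2000 sorted cells by amplified cDNA synthesis and sequenced as mRNA profiles. The labels give no strain, age, treatment or number of mice. Since nothing says that libraries stem from separate animals, p-values here reflect the spread among 4 libraries, and that spread may be technical.

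The mitochondrial ribosome makes the few proteins that the mitochondrial genome encodes, all of them subunits of the respiratory chain or the ATP synthase. Its RNA comes from the mitochondrial genome, while all its proteins are encoded in the nucleus, made in the cytosol and imported. Some of these proteins have counterparts in bacterial ribosomes, and others are found only in mitochondria. Stem cells in the bone marrow are known for a low use of oxidative phosphorylation while they are quiescent, and for raising it when they divide and differentiate.

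Recovered reads numbered 13064814 and 16145319 in LT-HSC 1 and 2, against 15031905 and 14824543 in ST-HSC 1 and 2. Values are on the counts-per-million scale (CPM), relative to all reads of a library. The HSC markers Slamf1, Procr, Mecom, Hlf, Kit and Ly6a had reads in each library, the lowest being Slamf1 at 65.8 CPM in ST-HSC 1. Summed over 24 proliferation genes, the level was 1792 and 1948 CPM in LT-HSC, against 3058 and 3980 CPM in ST-HSC. The corresponding sums over T and NK cell markers were 30.9 and 42.6 CPM in LT-HSC, against 116 and 133 CPM in ST-HSC. Over erythroid markers they were 289 and 206 CPM in LT-HSC, against 319 and 277 CPM in ST-HSC. The erythroid sum hides opposite directions. Klf1 was at 0.306 and 0.124 CPM in LT-HSC, against 27.4 and 9.43 CPM in ST-HSC. Epor was at 50.8 and 26.55 CPM in LT-HSC, against 7.38 and 21.1 CPM in ST-HSC. Of the 5 tested, 2 lay below and 1 above both ST-HSC libraries. Megakaryocyte markers summed to 399.9 and 459 CPM in LT-HSC, against 301 and 202 CPM in ST-HSC. Vwf made up most of the LT-HSC sum, at 304 and 379.7 CPM in LT-HSC, against 45.3 and 9.17 CPM in ST-HSC, while Itga2b was at 2.45 and 5.01 CPM in LT-HSC, against 152 and 105 CPM in ST-HSC, and Pf4 and Gp9 were also lower in LT-HSC. The neutrophil and monocyte markers summed to 511 and 392 CPM in LT-HSC, against 448 and 439.6 CPM in ST-HSC. B cell markers summed to 219 and 129.8 CPM in LT-HSC, against 145 and 105 CPM in ST-HSC, nearly all of it Cd79b. Of their defining markers, Ctsg, Pax5, Cd3e and Cd3d had no recovered read in any library. Passing the filter were 5 of 6 megakaryocyte, 7 of 8 neutrophil and monocyte, 1 of 5 B cell and 2 of 5 T and NK cell markers. Their part in the values below was not tested, and in bulk samples fewer cells of a type and less RNA per cell cannot be told apart. Over all 12569 genes tested, limma called 0 at an adjusted p under 0.05 and 814 at an unadjusted p under 0.05, while limma-voom on the recovered reads called 0 and 586.

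All 73 members passed the filter on low values (at least 1 CPM in at least 2 libraries) and had reads in every library. The lowest count was 15 reads, for Mrps18b in LT-HSC 1, and 69 members had at least 200 reads in each library. Together they took 0.799% and 0.694% of the reads of LT-HSC 1 and 2, against 0.802% and 0.773% of those of ST-HSC 1 and 2. The mean share was 0.747% ± 0.074 for LT-HSC and 0.787% ± 0.020 for ST-HSC (SD, n = 2 per group), with LT-HSC 2 lowest and LT-HSC 1 inside the range of the ST-HSC libraries. No member was called: 0 of 73 passed at an adjusted p under 0.05 by limma, beside 0% of all tested genes. At an unadjusted p under 0.05 there was 1 member, Mrpl19, which is lower in LT-HSC, beside 6.48% of all tested genes. The fold changes of members below are therefore values and not calls.

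**Figure D1:**
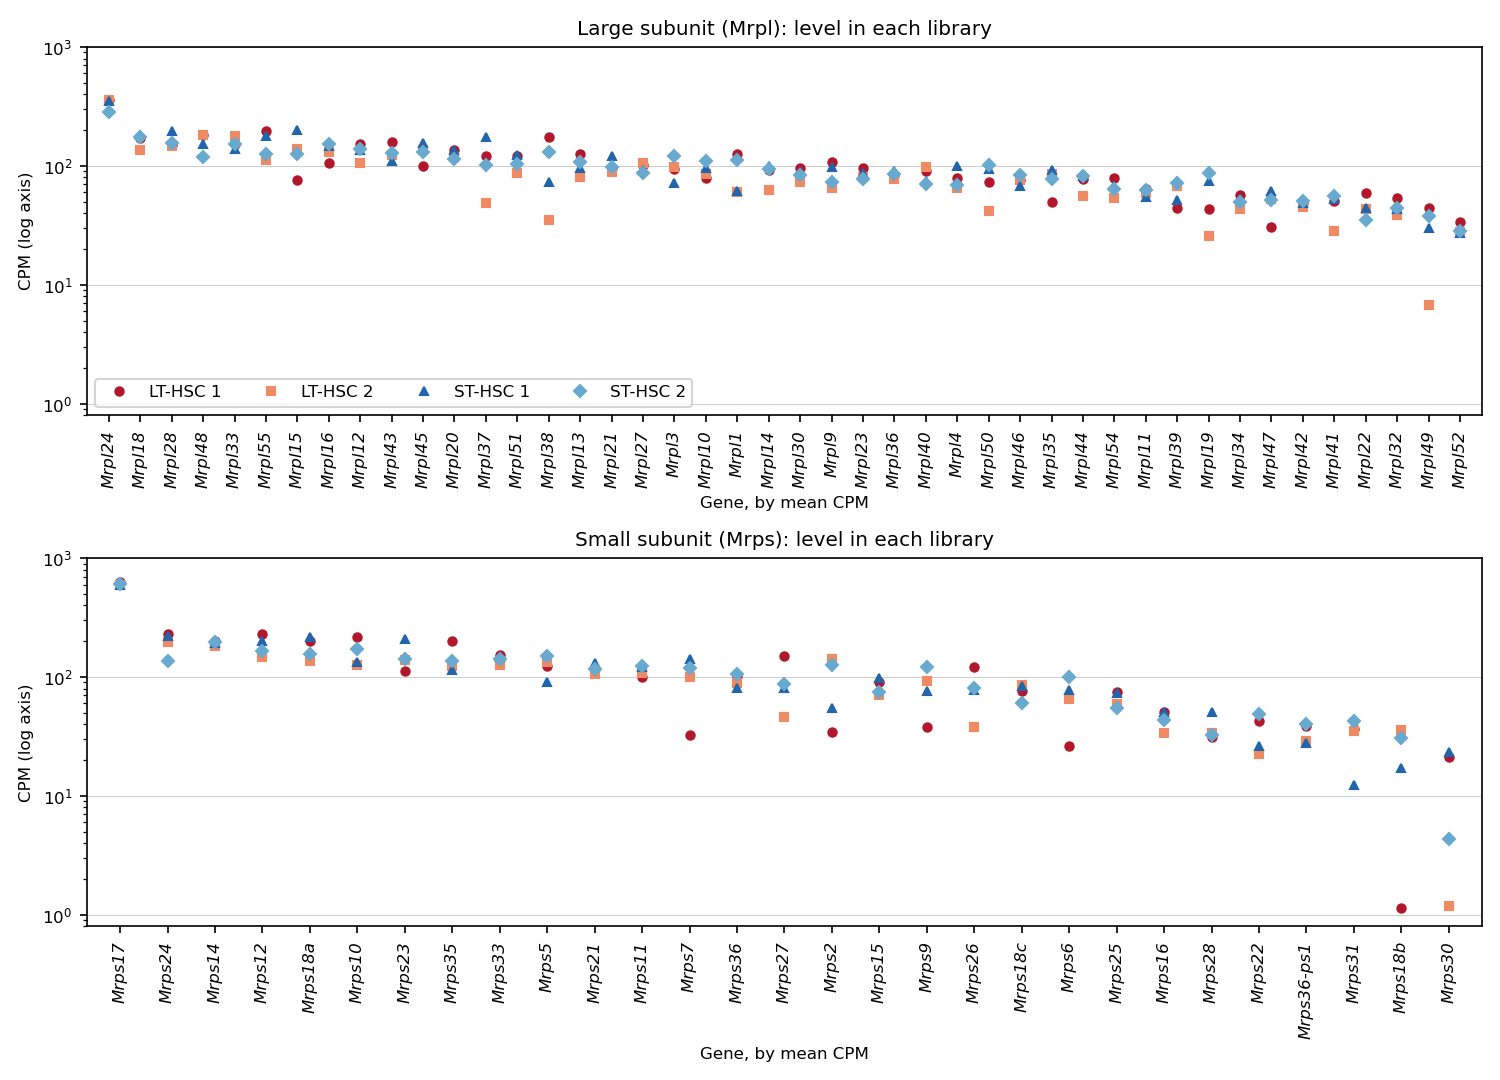
Level of each member in CPM on a log axis, with large subunit genes above and small subunit genes below, ordered by mean; each symbol is 1 library. Most genes have their 4 libraries close together, and Mrps18b, Mrps30 and Mrpl49 have libraries far below the others.

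Levels between members were compared per kilobase of coding sequence, which leaves out untranslated regions and was known for 72 members. The median over the 44 large subunit genes was 147 CPM per kilobase and that over 28 small subunit genes was 143 CPM per kilobase. In the large subunit the order began with Mrpl33 (798 CPM per kilobase), Mrpl24 (524), Mrpl55 (381) and Mrpl18 (308), and ended with Mrpl19 (66.1), Mrpl47 (65.4), Mrpl49 (59.9) and Mrpl39 (58.7), all per kilobase. Mrpl24 encodes a protein whose bacterial counterpart starts assembly of the large subunit. In the small subunit the order began with Mrps17 (1685 CPM per kilobase), Mrps14 (504), Mrps21 (453) and Mrps33 (447), and ended with Mrps22 (32.6), Mrps18b (28.0), Mrps31 (27.5) and Mrps30 (9.51), all per kilobase. Several neighbours lay closer to each other than their libraries did, so their order is not settled. Among them were Mrps21 and Mrps33, Mrps18b and Mrps31, Mrpl49 and Mrpl39, and Mrpl19 and Mrpl47. Mrps33 was also nearly level with Mrps12 (446 CPM per kilobase), which came next.

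Among the abundant genes, Mrpl33, a short protein of the large subunit with a bacterial counterpart, was at 152 and 178 CPM in LT-HSC, against 139 and 152 CPM in ST-HSC. Mrpl55 was at 198 and 112 CPM in LT-HSC, against 178 and 126 CPM in ST-HSC, so that both libraries numbered 1 were higher. In the small subunit, Mrps14 was at 202 and 184 CPM in LT-HSC, against 192 and 196 CPM in ST-HSC. Mrps14 thus varied little over the 4 libraries. Mrps33, a mitochondria-specific gene, was at 152 and 126 CPM in LT-HSC, against 148 and 142 CPM in ST-HSC. Among the genes at the low end, Mrpl39 was at 44.5 and 67.4 CPM in LT-HSC, against 52.2 and 72.4 CPM in ST-HSC, and Mrpl47 at 30.7 and 53.1 CPM in LT-HSC, against 62.0 and 51.9 CPM in ST-HSC. Mrps22, whose human gene is mutated in a mitochondrial disease, was at 43.0 and 22.4 CPM in LT-HSC, against 26.3 and 48.8 CPM in ST-HSC. The groups of all these genes overlapped.

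In Mrps31, Mrpl49, Mrpl38 and Mrps2, 1 or more libraries stood far from the rest. Mrps31 was at 36.4 and 35.4 CPM in LT-HSC, against 12.4 and 42.6 CPM in ST-HSC, with only ST-HSC 1 low. Mrpl49 was at 44.4 and 6.81 CPM in LT-HSC, against 29.9 and 38.2 CPM in ST-HSC, with only LT-HSC 2 low. Mrpl38, a gene of the central protuberance, was at 175 and 35.2 CPM in LT-HSC, against 73.6 and 131 CPM in ST-HSC, with LT-HSC 2 lowest and LT-HSC 1 highest. Mrps2, whose bacterial counterpart joins the small subunit late, was at 34.3 and 141 CPM in LT-HSC, against 55.0 and 126 CPM in ST-HSC. In Mrps2 both libraries numbered 2 were high, and the groups of all 4 genes overlapped.

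Mrps17, the most abundant member by this measure, was also the steadiest. It stood at 625 and 599 CPM in LT-HSC, against 598 and 604 CPM in ST-HSC, and the groups overlapped. Its log2 fold change was 0.03 ± 0.14 (SE). Its highest library was 1.04 times its lowest. Over the members this fold between the highest and lowest library had a median of 1.53, and it stayed under 2 for 55 of 73. It exceeded 4 for 6 members, or 8.22%, against 41.1% of all tested genes, whose median level was lower (48.1 CPM, against 89.1 CPM for the members). These 6 were Mrps18b, Mrps30, Mrpl49, Mrpl38, Mrps7 and Mrps2. The same share was 1.33% of the 75 cytosolic ribosomal protein genes tested, at a median level of 117 CPM, and 0% of the 78 nuclear-encoded genes of the respiratory chain and ATP synthase, at 85.8 CPM.

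The large and small subunit were compared next. The log2 fold change of LT-HSC over ST-HSC, on the scale of log2(CPM + 1), had a median of -0.10 over the large subunit genes and -0.09 over the small subunit genes, beside -0.01 over all tested genes. The difference of the medians, large minus small, was -0.01. It was -0.04 with Mrps18a and Mrps30 counted in the large subunit, where their proteins sit in the assembled ribosome, and with Mrps36 left out, whose product is now known as a part of the 2-oxoglutarate dehydrogenase complex. Summed CPM of the large subunit genes was 1.30 and 1.23 times that of the small subunit genes in LT-HSC 1 and 2, against 1.33 and 1.26 times in ST-HSC 1 and 2. The ratio averaged 1.27 ± 0.045 in LT-HSC and 1.30 ± 0.050 in ST-HSC (SD, n = 2 each), a difference smaller than the spread within either group. Genes with bacterial counterparts had medians of -0.08 (28 large subunit genes by place) and -0.15 (17 small subunit genes). Those found only in mitochondria had medians of -0.16 (17 large) and -0.04 (8 small). This split goes by relation to a bacterial protein and not by place, so Mrps18a and Mrps18b were counted with the bacterial counterparts.

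Each LT-HSC library was then set against each ST-HSC library. LT-HSC 1 minus ST-HSC 1 and LT-HSC 1 minus ST-HSC 2 gave median differences in log2(CPM + 1) of 0.07 and 0.15 for large subunit genes, and 0.03 and 0.04 for small subunit genes. LT-HSC 2 minus ST-HSC 1 and LT-HSC 2 minus ST-HSC 2 gave -0.22 and -0.16 for large subunit genes, and -0.22 and -0.17 for small subunit genes. The sign thus followed the LT-HSC library, in both subunits. Within LT-HSC, library 1 minus library 2 gave 0.27 for large and 0.19 for small subunit genes, and within ST-HSC 0.07 and -0.01. The median size of the difference per member, without its sign, between libraries of different groups was 0.22 to 0.30, against 0.41 for the LT-HSC replicates and 0.27 for the ST-HSC replicates. The 4 between-group values thus lay below that of the LT-HSC replicates and on both sides of that of the ST-HSC replicates. Leaving out LT-HSC 2 turned the median of all members from -0.09 to 0.09, and leaving out LT-HSC 1 gave -0.20.

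**Figure D2:**
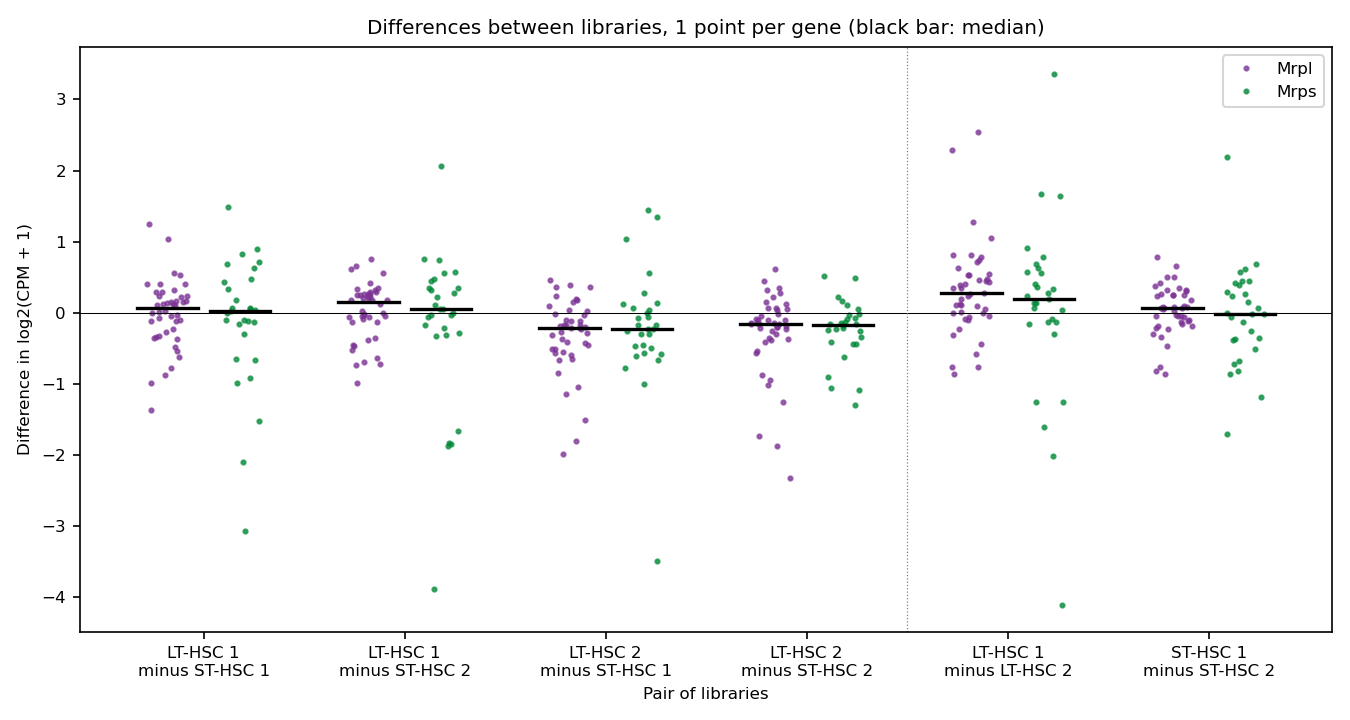
Difference in log2(CPM + 1) for each pair of libraries, 1 point per member, large and small subunit genes side by side, with black bars at the medians; the 2 pairs right of the dotted line are replicates of 1 group. Medians are above 0 for pairs that begin with LT-HSC 1 and below 0 for LT-HSC 2 against either ST-HSC library.

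The difference between the LT-HSC libraries was then set beside that of other lists. LT-HSC 1 minus LT-HSC 2 had a median of 0.24 over the members, 0.28 over cytosolic ribosomal protein genes and 0.30 over nuclear-encoded respiratory chain and ATP synthase genes, beside 0.06 over all tested genes. It was -0.18 over the HSC markers and -0.05 over the proliferation genes. These 2 lists had no clear direction, with 3 of 7 HSC markers and 12 of 24 proliferation genes higher in LT-HSC 1. That share was 69.9% of the members, beside 52.6% of all tested genes. LT-HSC 1 had the fewest reads and LT-HSC 2 the most, and 14548 and 13341 genes had a read in them, against 13318 and 13275 in ST-HSC 1 and 2. Whether depth or detection has a part in this difference was not tested.

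Both LT-HSC libraries lay below both ST-HSC libraries for 16 members, or 21.9%, beside 17.5% of all tested genes. Both lay above for 4 members, or 5.48%, beside 16.2% of all tested genes. In either direction the groups did not overlap for 20 members, beside 33.7% of all tested genes. The 4 above were all large subunit genes, or 9.09% of that subunit, so that 0 of the 29 small subunit genes lay above. Below lay 11 large and 5 small subunit genes, or 25% and 17.2% of their subunits, beside the same 17.5% of all tested genes. The log2 fold change was below 0 for 45 of 73 members, beside 50.8% of all tested genes. It was within 0.5 of 0 for 62 members, or 84.9%, beside 51.5% of all tested genes, 98.7% of cytosolic ribosomal protein genes and 96.2% of respiratory chain and ATP synthase genes.

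**Figure D3:**
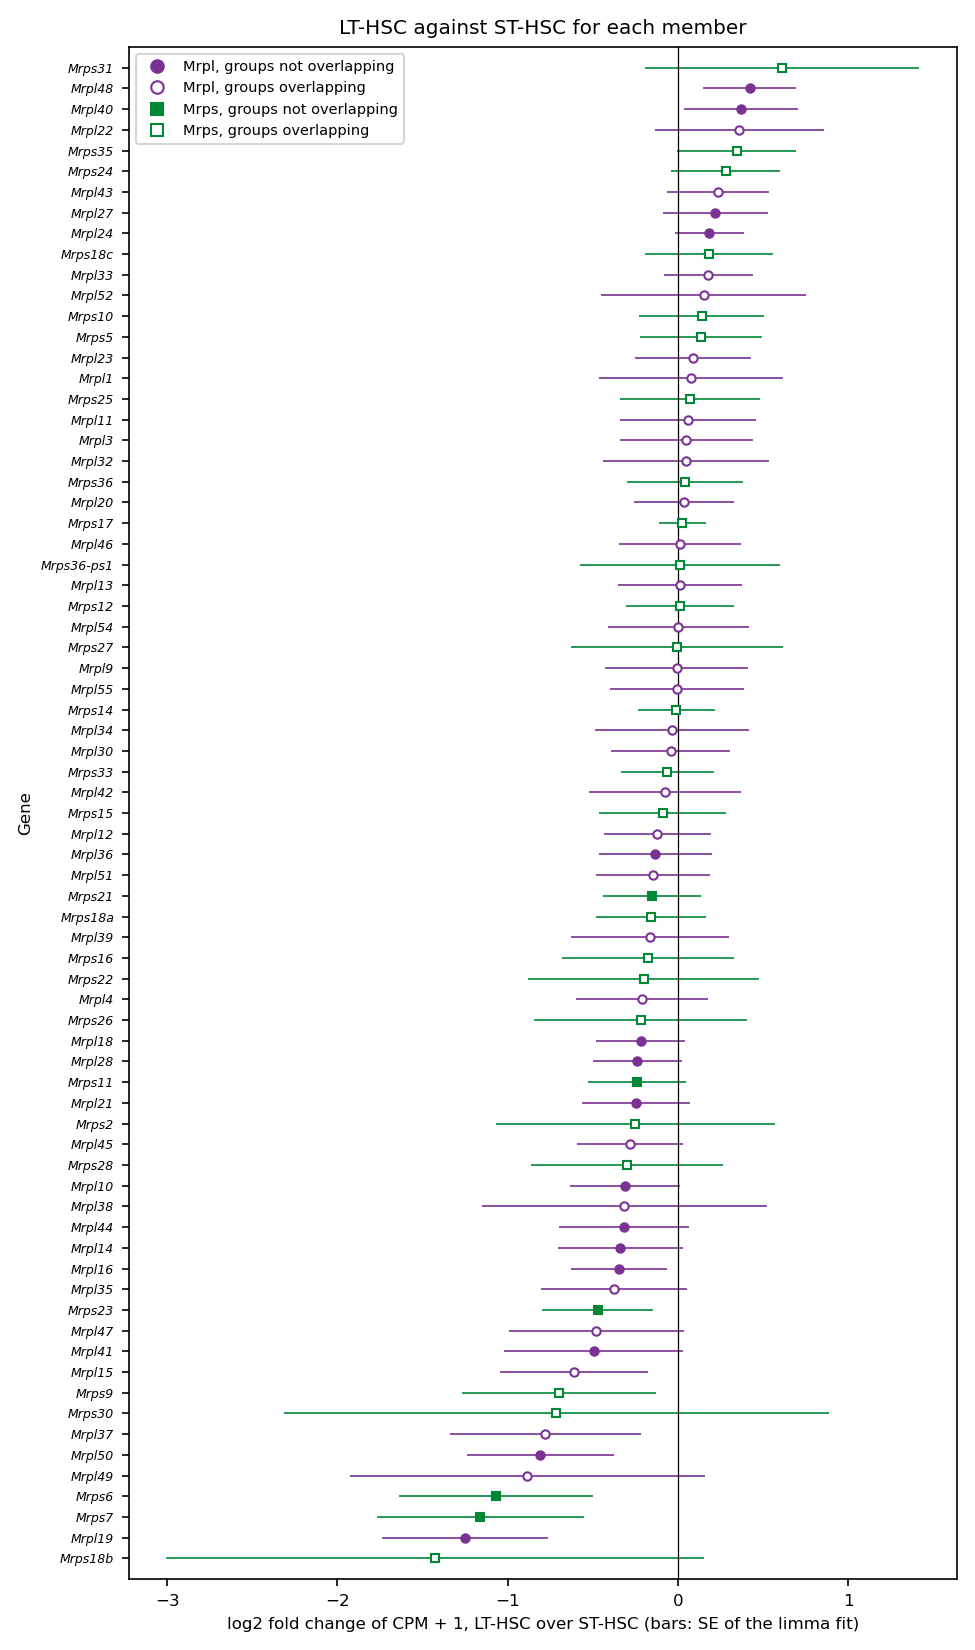
Log2 fold change of each member, LT-HSC over ST-HSC, with the SE of the limma fit; circles are Mrpl genes, squares are Mrps genes, and filled symbols are genes whose groups do not overlap. Values run from -1.43 (Mrps18b) to 0.61 (Mrps31), and the filled symbols number 16 below 0 and 4 above 0.

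Of the large subunit genes with separate groups, Mrpl19 had the lowest fold change. Its protein has a bacterial counterpart at the interface of the subunits. Mrpl19 stood at 43.4 and 25.7 CPM in LT-HSC, against 74.9 and 87.5 CPM in ST-HSC (log2 fold change -1.25 ± 0.49 SE, limma unadjusted p = 0.0499, adjusted p = 0.767). Both LT-HSC libraries were low, with LT-HSC 2 lowest. In the mouse annotation its exons overlap those of Gcfc2 on the opposite strand. Whether reads were counted by strand is not stated, so reads within the overlap could not be assigned to either gene. How many reads fell there was not tested.

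Mrpl50, which encodes a protein found only in mitochondrial ribosomes, was at 73.2 and 42.0 CPM in LT-HSC, against 93.8 and 102 CPM in ST-HSC (log2 fold change -0.81 ± 0.43 SE, adjusted p = 0.821 by limma). Mrpl41, a mitochondria-specific protein gene whose human product was reported to bind p53, was at 50.9 and 28.6 CPM in LT-HSC, against 52.4 and 56.1 CPM in ST-HSC. Its groups were apart by less than the distance within LT-HSC. Mrpl16, whose bacterial counterpart lies near the site where transfer RNA enters, was at 106 and 132 CPM in LT-HSC, against 148 and 153 CPM in ST-HSC. Mrpl14, whose protein is the docking site of a factor that keeps the subunits apart, was at 92.1 and 63.2 CPM in LT-HSC, against 99.7 and 94.0 CPM in ST-HSC.

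These genes had log2 fold changes of -0.49 (Mrpl41), -0.35 (Mrpl16) and -0.34 (Mrpl14). Mrpl18, Mrpl21, Mrpl28, Mrpl36, Mrpl44 and Mrpl10 also lay below both ST-HSC libraries, with log2 fold changes between -0.32 and -0.13.

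The 4 genes that lay above both ST-HSC libraries had log2 fold changes of 0.18 to 0.42. Mrpl48, whose protein sits in the central protuberance of the large subunit, was at 181 and 181 CPM in LT-HSC, against 154 and 118 CPM in ST-HSC (log2 fold change 0.42 ± 0.27 SE, adjusted p = 0.866 by limma). Mrpl40, another gene of the central protuberance, was at 90.8 and 97.5 CPM in LT-HSC, against 74.3 and 71.0 CPM in ST-HSC (log2 fold change 0.37 ± 0.34 SE). Mrpl27, whose bacterial counterpart reaches the site of peptide bond formation, was at 103 and 106 CPM in LT-HSC, against 92.1 and 86.8 CPM in ST-HSC. Mrpl24 was at 359 and 361 CPM in LT-HSC, against 355 and 284 CPM in ST-HSC, so that LT-HSC and ST-HSC 1 were nearly level. The LT-HSC libraries of each gene differed by little, while ST-HSC 2 was the low library in all 4. Exons of Mrpl48, Mrpl24 and Mrpl27 overlap those of Rab6a, Rrnad1 and Eme1 on the opposite strand, so these values carry the same doubt as that of Mrpl19. Such an overlap is annotated for 20 members in all, among them Mrpl10, Mrpl12, Mrpl18, Mrpl47, Mrpl49, Mrps18b and Mrps30, and an overlap on the same strand for 4, Mrpl33, Mrpl51, Mrps6 and Mrps18c.

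The stalk of the large subunit, which recruits elongation factors, is represented by Mrpl10 and Mrpl12. Mrpl10 was at 79.5 and 84.7 CPM in LT-HSC, against 95.8 and 109 CPM in ST-HSC, and its log2 fold change was -0.31 ± 0.32 (SE). Mrpl12, whose human product also binds the mitochondrial RNA polymerase, was at 152 and 105 CPM in LT-HSC, against 136 and 140 CPM in ST-HSC. The ST-HSC libraries lay between the LT-HSC libraries, and the log2 fold change was -0.12 ± 0.31 (SE).

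In the small subunit, the lowest fold change with separate groups belonged to Mrps7, whose bacterial counterpart starts assembly of the head of the subunit. It was at 32.5 and 101 CPM in LT-HSC, against 142 and 118 CPM in ST-HSC (log2 fold change -1.16 ± 0.61 SE, adjusted p = 0.817 by limma). LT-HSC 1 was far lower than the other libraries, and the value without it was -0.36. Mrps6, the gene of a protein of the platform, was at 26.5 and 65.1 CPM in LT-HSC, against 77.9 and 100.3 CPM in ST-HSC. Here too LT-HSC 1 was lowest, and the log2 fold change was -1.07 ± 0.57 (SE), or -0.44 without LT-HSC 1. Exons of Mrps7 overlap those of Gga3 and Mif4gd on the opposite strand, and exons of Mrps6 overlap those of Slc5a3 on the same strand, so the values of both members are uncertain.

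Mrps23, a gene of a mitochondria-specific protein, was at 111 and 138 CPM in LT-HSC, against 211 and 141 CPM in ST-HSC (log2 fold change -0.47 ± 0.33 SE). LT-HSC 2 and ST-HSC 2 were nearly level. Mrps11 was at 99.2 and 109 CPM in LT-HSC, against 123 and 123 CPM in ST-HSC, and Mrps21 at 117 and 107 CPM in LT-HSC, against 131 and 118 CPM in ST-HSC. Their log2 fold changes were -0.24 ± 0.29 and -0.15 ± 0.29 (SE), smaller than their errors.

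Mrps12, whose bacterial counterpart sets the accuracy of decoding, was at 229 and 148 CPM in LT-HSC, against 202 and 165 CPM in ST-HSC. The LT-HSC libraries lay on both sides of the ST-HSC libraries, and the log2 fold change was 0.01 ± 0.32 (SE). Mrps36 was at 102 and 89.6 CPM in LT-HSC, against 81.3 and 106 CPM in ST-HSC. The pseudogene Mrps36-ps1 was at 39.0 and 29.1 CPM in LT-HSC, against 27.8 and 40.1 CPM in ST-HSC. How reads shared between near-identical copies were counted is not stated, so the split between Mrps36 and its pseudogene is uncertain.

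Mammals have 3 genes related to bacterial S18, and their proteins hold different places: that of Mrps18c has the bacterial place, that of Mrps18b sits elsewhere in the small subunit, and that of Mrps18a is in the large subunit. Mrps18a was the most abundant, at 199.5 and 136 CPM in LT-HSC, against 215 and 157 CPM in ST-HSC, or 301 CPM per kilobase. Mrps18c was at 76.5 and 85.4 CPM in LT-HSC, against 83.3 and 60.9 CPM in ST-HSC, or 178 CPM per kilobase. Mrps18b was at 1.15 and 36.2 CPM in LT-HSC, against 17.1 and 30.9 CPM in ST-HSC, or 28.0 CPM per kilobase. This order per kilobase was the same in each of the 4 libraries.

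The low value of Mrps18b in LT-HSC 1 rests on 15 reads, against 585 reads in LT-HSC 2, and 257 and 458 reads in ST-HSC 1 and 2. It set the direction of the fold change, which was -1.43 ± 1.58 (SE) with all libraries and 0.63 without LT-HSC 1. The log2 fold change was -0.16 ± 0.32 (SE) for Mrps18a and 0.18 ± 0.38 (SE) for Mrps18c, with overlapping groups for all 3 genes. Mrps30, the other gene with an S symbol whose protein is in the large subunit, was at 21.4 and 1.18 CPM in LT-HSC, against 23.5 and 4.38 CPM in ST-HSC. Both libraries numbered 2 were low, and the groups overlapped. Its log2 fold change was -0.72 ± 1.6 (SE), or 0.97 without LT-HSC 2.

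Promoter windows of the Mrps18 genes are shown with that of Mrps12, which faces the start of Sars2, because these members differ in level or in their neighbour. RefSeq windows on GRCm38.p6, from 250 bases before to 50 after the gene start, were matched by symbol for 64 of 72 coding members. Each is printed on the strand of the gene, with capitals at matches to CCGGAAG, a core read by ETS factors such as GABP, and to the YY1 motif, which is the longer run of capitals in the Mrps18a window. Both strands were searched, so that an ETS match can appear as CTTCCGG.
Mrps18a (chr17:46110754-46111053, plus strand): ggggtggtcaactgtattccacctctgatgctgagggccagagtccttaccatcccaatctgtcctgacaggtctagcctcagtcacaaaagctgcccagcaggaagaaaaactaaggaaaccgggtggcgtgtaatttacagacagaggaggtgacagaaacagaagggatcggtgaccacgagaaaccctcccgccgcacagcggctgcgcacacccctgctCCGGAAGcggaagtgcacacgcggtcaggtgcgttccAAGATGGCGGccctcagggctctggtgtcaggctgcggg
Mrps18b (chr17:35916391-35916690, minus strand): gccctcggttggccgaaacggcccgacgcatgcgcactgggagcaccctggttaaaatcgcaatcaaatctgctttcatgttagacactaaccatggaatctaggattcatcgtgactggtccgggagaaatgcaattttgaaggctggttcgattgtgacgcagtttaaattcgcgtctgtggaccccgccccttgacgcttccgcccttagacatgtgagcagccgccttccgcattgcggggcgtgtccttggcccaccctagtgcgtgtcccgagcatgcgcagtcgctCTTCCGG
Mrps18c (chr5:100798509-100798808, plus strand): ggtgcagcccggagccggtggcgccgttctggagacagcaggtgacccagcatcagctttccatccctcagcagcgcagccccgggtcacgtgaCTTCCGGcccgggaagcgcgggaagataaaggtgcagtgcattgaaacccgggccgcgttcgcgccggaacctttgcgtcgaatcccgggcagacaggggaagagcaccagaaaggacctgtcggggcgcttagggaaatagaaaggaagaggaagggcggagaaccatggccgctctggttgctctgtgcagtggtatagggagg
Mrps12 (chr7:28741772-28742071, minus strand): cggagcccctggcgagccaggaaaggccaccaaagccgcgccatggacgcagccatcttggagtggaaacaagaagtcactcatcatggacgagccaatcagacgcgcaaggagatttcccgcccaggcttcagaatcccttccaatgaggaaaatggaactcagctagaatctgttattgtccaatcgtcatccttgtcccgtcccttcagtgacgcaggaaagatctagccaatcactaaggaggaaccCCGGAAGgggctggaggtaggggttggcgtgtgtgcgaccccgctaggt

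Over the 68 windows of members, 22 held CCGGAAG, or 32.4%, against 17.0% of the windows of tested genes and 8.86% of all 32851 windows. The share was 26.8% of 41 large subunit windows and 40.7% of 27 small subunit windows. The YY1 motif was in 7.35% of member windows, against 1.95% of the windows of tested genes and 0.852% of all. The palindromic motif of NRF1 was in 3 member windows (Mrpl9, Mrpl32 and Mrpl39), or 4.41%, against 1.98% and 0.971%. TATAAA was in 7.35% of member windows, against 7.32% of those of tested genes. These are matches of letters, given without a test, and not sites shown to be bound.

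Members often start next to a gene that runs the other way. In the GENCODE annotation, 20 of 72 coding members, or 27.8%, had a coding gene on the opposite strand whose start lay within 1000 bases upstream or 200 bases downstream of their own, against 7.94% of all coding genes. For 19 such pairs both genes were tested, and 10 of the 19 had fold changes of the same sign. Mrps12 faces Sars2, the gene of the mitochondrial seryl-tRNA synthetase. Sars2 had 1 and 24 recovered reads in LT-HSC, against 288 and 449 in ST-HSC, while Mrps12 had overlapping groups. Mrpl51 faces Ncapd2, a condensin gene chosen after its values were seen. Ncapd2 was at 43.8 and 39.2 CPM in LT-HSC, against 96.4 and 105 CPM in ST-HSC, while Mrpl51 was at 121 and 87.5 CPM in LT-HSC, against 125 and 104 CPM in ST-HSC.

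Among other genes of mitochondrial translation, the 6 mitoribosome proteins with other symbols had a median of -0.12 (log2 fold change). Of these, 1 of 6 lay below and 0 above both ST-HSC libraries, or 16.7% and 0%, beside 17.5% and 16.2% of all tested genes. Mrp63 was at 54.3 and 44.9 CPM in LT-HSC, against 64.9 and 69.3 CPM in ST-HSC. Ptcd3, a small subunit protein gene, was at 51.4 and 104 CPM in LT-HSC, against 43.3 and 63.7 CPM in ST-HSC, and its groups overlapped.

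Genes that assemble the mitoribosome or modify its RNA had a median log2 fold change of 0.30 over 21 tested, with 9 above and 2 below both ST-HSC libraries. These are 42.9% and 9.52% of the list, beside 16.2% and 17.5% of all tested genes. At an unadjusted p under 0.05 by limma, 2 were higher, beside 2.87% of all tested genes, and 0 lower. Nsun4, which encodes an RNA methyltransferase of the mitoribosome, was at 210 and 154 CPM in LT-HSC, against 104 and 87.5 CPM in ST-HSC (log2 fold change 0.91 ± 0.31 SE). Mtg1, a GTPase gene of large subunit assembly, was at 106 and 136 CPM in LT-HSC, against 69.6 and 56.9 CPM in ST-HSC. Neither was called (adjusted p = 0.75 for Nsun4 and 0.767 for Mtg1 by limma).

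Translation factors had a median of -0.27 over 14 tested, with 2 above and 3 below both ST-HSC libraries. These shares, 14.3% and 21.4%, are near the 16.2% and 17.5% of all tested genes. Gfm2, whose product splits the mitoribosome after translation ends, was at 244 and 220 CPM in LT-HSC, against 157 and 111 CPM in ST-HSC (log2 fold change 0.81 ± 0.28 SE). Genes of mitochondrial aminoacyl-tRNA synthesis had a median of -0.13 over 19 tested and a wide spread, from -3.94 for Sars2 to 2.92 for Nars2 (named as the ends of the range), and 73.7% of them had libraries more than 4-fold apart. Rars2, the arginyl-tRNA synthetase gene, was at 17.9 and 28.8 CPM in LT-HSC, against 53.8 and 99.4 CPM in ST-HSC. None of these was called at an adjusted p under 0.05 by limma, which called 0 over all genes.

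Genes that copy and process the mitochondrial genome and its RNA had a median of 0.12 over 16 tested, with 3 above and 3 below both ST-HSC libraries. Each is 18.8% of the list, near the 16.2% and 17.5% of all tested genes. Pnpt1, a mitochondrial exoribonuclease gene, was at 137 and 113 CPM in LT-HSC, against 55.1 and 38.4 CPM in ST-HSC. Polg, the gene of the mitochondrial DNA polymerase, was at 54.5 and 51.9 CPM in LT-HSC, against 21.4 and 7.95 CPM in ST-HSC. Lonp1, a gene of the matrix protease that degrades TFAM, was at 7.65 and 6.81 CPM in LT-HSC, against 77.4 and 38.1 CPM in ST-HSC. All 3 had groups that did not overlap and none was called (adjusted p = 0.716 for Pnpt1 and Lonp1 and 0.767 for Polg by limma).

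Regulators of mitochondrial biogenesis, which act on the promoters of many nuclear genes of mitochondria, had a median of -0.63 over 9 tested. Of these, 6 lay below both ST-HSC libraries and 0 above, or 66.7% and 0%, beside 17.5% and 16.2% of all tested genes. By limma 3 were lower at an unadjusted p under 0.05, beside 3.6% of all tested genes. Nrf1 was at 70.8 and 42.1 CPM in LT-HSC, against 190 and 114 CPM in ST-HSC (log2 fold change -1.42 ± 0.46 SE). Gabpb2, a subunit gene of GABP, was at 81.2 and 175 CPM in LT-HSC, against 297 and 259.5 CPM in ST-HSC. Ppargc1b, a coactivator gene, was at 0.306 and 1.80 CPM in LT-HSC, against 12.1 and 22.8 CPM in ST-HSC. Its LT-HSC values rest on 4 and 29 reads. These 3 genes were in separate groups, none was called, and the members' own median was -0.09. Others of the list went the other way or changed little, with overlapping groups: Ppargc1a (log2 fold change 1.81 ± 1.85 SE), Yy1 (0.23) and Myc (-0.12). Ppargc1a had 117 and 563 reads in LT-HSC, against 1 and 387 reads in ST-HSC, so its value rests largely on ST-HSC 1. Esrra had no recovered read in any library and was not tested.

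**Figure D4:**
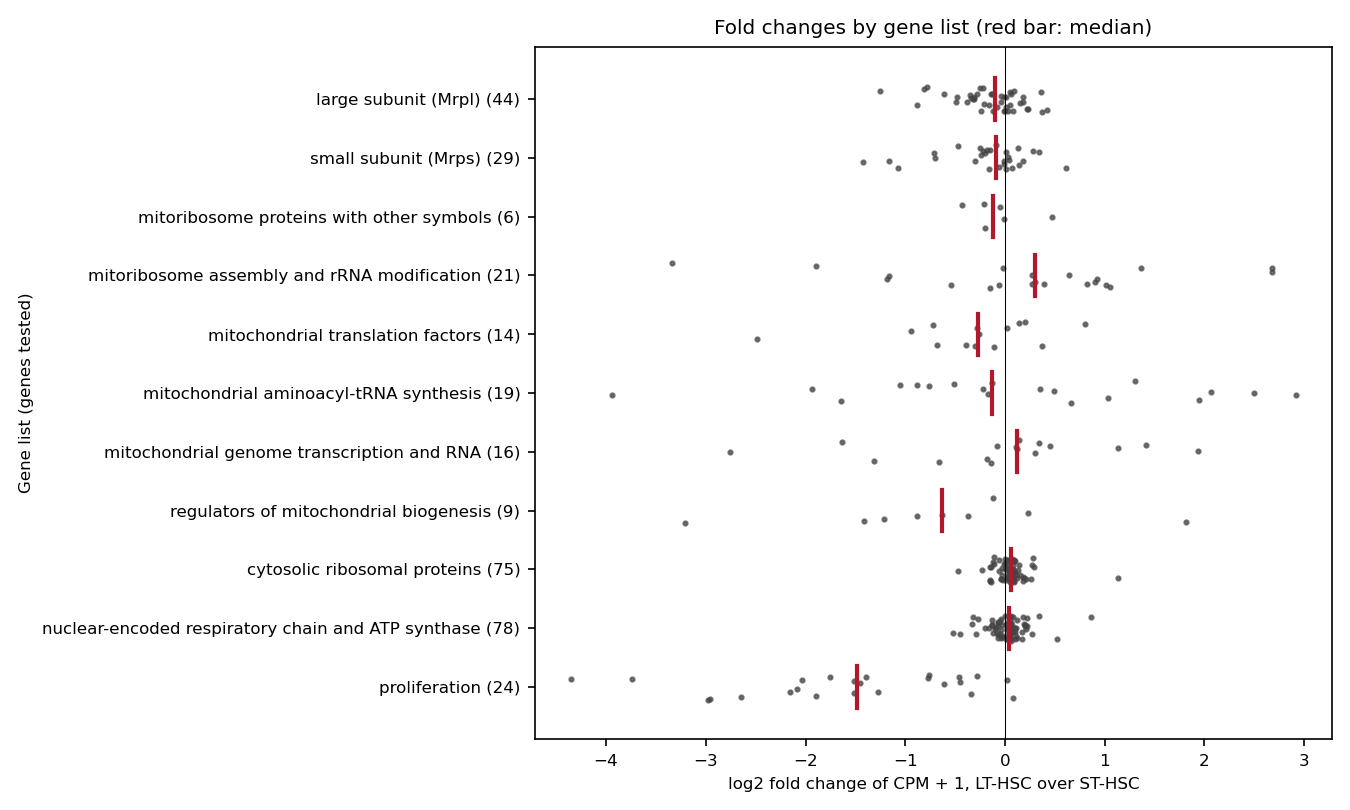
Log2 fold change, LT-HSC over ST-HSC, for the genes of each list, 1 point per tested gene, with red bars at the medians and the number tested in brackets. Most mitoribosome genes lie within 0.5 of 0, and the cytosolic ribosome and respiratory chain genes lie in a narrower band. The lists of aminoacyl-tRNA synthesis, assembly, mitochondrial genome transcription and biogenesis regulators spread widely. The proliferation list has a median of -1.48.

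The proliferation genes, given for comparison, had a median of -1.48 over 24 tested, with 16 below and 0 above both ST-HSC libraries. These are 66.7% and 0% of the list, beside 17.5% and 16.2% of all tested genes. The members, the cytosolic ribosomal protein genes and the respiratory chain and ATP synthase genes had medians of -0.09, 0.06 and 0.04 in the same libraries. No test of the difference between these lists was made.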

How the data were processed

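RNA from sorted cells was amplified as cDNA (SMARTer) and sequenced on an Illumina instrument, per the labels' protocols; reads were aligned with TopHat to mm9, per the submitters' processing notes, while the sources used here do not give the counter, annotation or strand handling. The authors deposited 1 table per library of log2 values. They were taken as the log2 of the read count plus 1 on a counts-per-million (CPM) scale. Whole reads within 0.1 were recovered for 100% of values up to 100 reads, and CPM was computed from them. If genes without reads had instead been raised to 1 read, each read gene holds 1 read more. The recovered sum fell short of the total that the scale implies, by slightly more than the number of genes with a read. This held in every library, as in LT-HSC 1 with 13064814 reads recovered, 13079931 implied and 14548 genes with a read. Such a gap is what the other reading would leave. Read counts given here may therefore be 1 too low, and genes without a recovered read may hold 1.

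The 12569 genes that reached 1 CPM in 2 or more libraries were tested on log2(CPM + 1) with limma 3.58.1 (trend, robust, R 4.3.3), LT-HSC over ST-HSC, 2 libraries each, with Benjamini-Hochberg adjustment and a threshold of 0.05. This scale understates changes of low genes. The step was tested on simulated data that had the same relative spread for all genes and planted changes larger than those of the members. That test does not show how well changes as small as those of the members are found. Libraries of 1 group differed beyond counting noise (chi-square over degrees of freedom 183 in LT-HSC and 144 in ST-HSC). The floor of 3 reads is 0.186 to 0.229 CPM and covers counting error only. Coding lengths and gene arrangement came from GENCODE (GRCm38), and promoter windows from RefSeq (GRCm38.p6).

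Members and gene lists were chosen with earlier results of these data known. Named members were those with separate groups and the largest fold changes (up to 5 per subunit and direction), those at an unadjusted p under 0.05, 8 of special place, and the 4 highest and 4 lowest per subunit by level per kilobase. Of companion lists, genes at an unadjusted p under 0.05 were named, otherwise up to 2 with the smallest p. Alternatives varied the added CPM, filter, scaling, model and libraries.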

Additional observations from a re-analysis of the deposited data

How the results depend on the processing

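Across all settings run, 0 genes and 0 members passed at an adjusted p under 0.05. The number of members at an unadjusted p under 0.05, 1 in the fit reported, was 0 with at least 5 CPM required in every library of a group, with no filter, with no robust shrinkage, with quantile normalization and with upper quartile factors, and 0 to 3 when 1 library was left out. Fits with 1 library left out rest on 1 library in a group, and their count over all tested genes moved as well. The range of member counts in them is therefore not read as a change of the members. With the replicate number as a block the number of members was also 0, with 878 genes at an unadjusted p under 0.05 in place of 814. The block changed no call. Deviations of same-numbered libraries had a correlation of 0.05 over 12569 genes. This value rests on 2 pairs and cannot show whether same-numbered libraries share a batch. Members with separate groups numbered 20, and no fewer than 18 in any setting run. They numbered 36 to 55 with 1 library left out, where 2 libraries face 1, assumed to vary like the others. Groups separate more easily with 2 libraries against 1 than with 2 against 2. No share of all tested genes is given beside these counts, so the rise from 20 is not read as a change of the members. The same omission gave medians of -0.20 to 0.089 for members, -0.21 to 0.075 for large and -0.20 to 0.10 for small subunit genes, and -0.03 to 0.03 for large minus small.

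The Mrps12 fold change (log2) turned to -0.022 with limma-voom and -0.014 with quantile normalization, and ran from -0.31 to 0.32 with 1 library left out. Ranges that crossed 0 in the same way were -3.48 to 0.63 for Mrps18b, -2.40 to 0.97 for Mrps30, -0.43 to 0.12 for Mrps18a, -0.042 to 0.40 for Mrps18c, -0.15 to 0.23 for Mrps36, -0.39 to 0.15 for Mrpl12 and -0.032 to 0.97 for Ptcd3. The cause was not tested. The other genes among the 35 refitted kept their direction in the settings run. Genes named only for their level or for the spread of their libraries, such as Mrps31 and Mrpl38, were not followed through the settings.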
